A study of Homo sapiens with 4 samples.

Results

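The genes described here encode the machinery that carries proteins made in the cytosol into mitochondria. Members were matched by symbol, from a list drawn up with earlier results of these data known. The list held 37 names, 1 of which (TOMM70A) is an older symbol of TOMM70, and 36 genes were found among the 57979 genes with values. Polyadenylated RNA was sequenced from cells labelled HepG2, a line derived from a human liver tumour, with 2 wild-type (WT) libraries and 2 TXNDC9 knockout (TXNDC9-KO) libraries. TXNDC9 is a thioredoxin domain protein that the study examined in liver cancer cells, and the comparison asks which transcripts changed when it was removed. All 4 libraries came from cells grown in DMEM with serum, and the knockout was made with Cas9 and guide RNAs against TXNDC9, delivered by lentivirus. For its western blot the study sorted cells infected with guide or with vector alone, but the sources used here do not say whether the sequenced cells were these, or 1 clone. Nor do they say whether the libraries of a group came from separate cultures, so the p-values measure only the spread between these libraries.

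Most mitochondrial proteins are encoded in the nucleus and enter the organelle through the TOM complex of the outer membrane. From there, proteins with a presequence pass to the TIM23 complex and are pulled into the matrix by a motor built around the chaperone HSPA9, where a protease removes the presequence. Carrier proteins are escorted by small TIM chaperones to the TIM22 complex, barrel proteins are inserted into the outer membrane by the SAM complex, and cysteine-rich proteins are trapped in the space between the membranes by a disulfide relay.

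Several facts about the libraries touch these results. TXNDC9 itself was measured at 35.1 and 37.3 FPKM (fragments of a transcript scaled by its length and by the library) in WT and at 21.9 and 27.6 in TXNDC9-KO. Its log2 fold change was -0.55 (SE 0.14, limma adjusted p = 0.0145), which missed the threshold. After rescaling to TPM, in which each library has the same total, it was 0.12. These values are of mRNA, and by western blot the study reported a significant reduction of TXNDC9 protein in its knockout cells. The label of the cells was checked against 8 hepatocyte-like markers, and the data went against it. ALB, AFP, APOB, TTR, SERPINA1 and HNF4A lay between 0 and 0.449 FPKM in all 4 libraries, and APOA1 and FOXA2 were listed at 0. The collagen COL1A1 was at 31.5 and 22.8 FPKM in wild type and 20.7 and 17.5 in the knockout, and COL3A1 at 19.4 and 24.0 against 13.4 and 13.1, while PTPRC, PECAM1 and KRT5 did not exceed 0.261 FPKM. Their part in the results below was not tested. The file held no counts, so the depth of the libraries is unknown. The FPKM values of a library summed to 805816 and 971102 in wild type and to 535973 and 568280 in the knockout. In bulk RNA, fewer cells of a type and less RNA per cell cannot be told apart.

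Import gene transcripts were mostly lower in the knockout in FPKM as deposited. Both knockout values lay below both wild-type values for 28 of the 36 genes, against 45.9% of all tested genes, and above them for 3 (TOMM20, GRPEL2 and TOMM70), against 40.1%. For the other 5 (TOMM40L, HSPA9, TIMM17A, TIMM10B and TOMM7) the groups overlapped, as they did for 13.9% of all genes. With an adjusted p under 0.01 and a change of at least 2-fold, 12 import genes (33.3%) fell, against 15.3% of the 13246 genes tested. These were PAM16, TIMM13, TIMM10, TOMM22, TOMM40, TIMM44, TIMM9, TIMM22, GFER, TIMM17B, TOMM5 and TIMM50. None rose (0 genes, limma), against 14.2% of all genes, and 1 (TOMM70) was higher at an unadjusted p under 0.05. A further 9 import genes were lower at an adjusted p under 0.01 but by less than 2-fold. The share of all tested genes in that range was not counted. At an adjusted p under 0.05 with no limit of fold, 27 import genes were lower and 1 higher, against 36.7% and 31.6% of all genes. The median log2 fold change of the import genes was -0.67, and that of all tested genes -0.09. Leaving out a library changed these counts. With limma's spread then resting on the 3 libraries left and the lone library assumed to vary like the others, 14 import genes fell without WT replicate 1 and 8 without WT replicate 2, beside 2633 and 1567 of all tested genes. Without either TXNDC9-KO library the calls were lost, over all genes as well, and effect sizes alone are given here. The median log2 fold change of the import genes was then -0.65 (without replicate 1) and -0.73 (without replicate 2). Over all tested genes it was -0.06 and -0.11. The 12 genes, chosen for their fall in all 4 libraries, stood between -1.60 and -0.97 without TXNDC9-KO replicate 1 on the log2 scale. Without TXNDC9-KO replicate 2 they stood between -1.63 and -1.03.

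**Figure D1:**
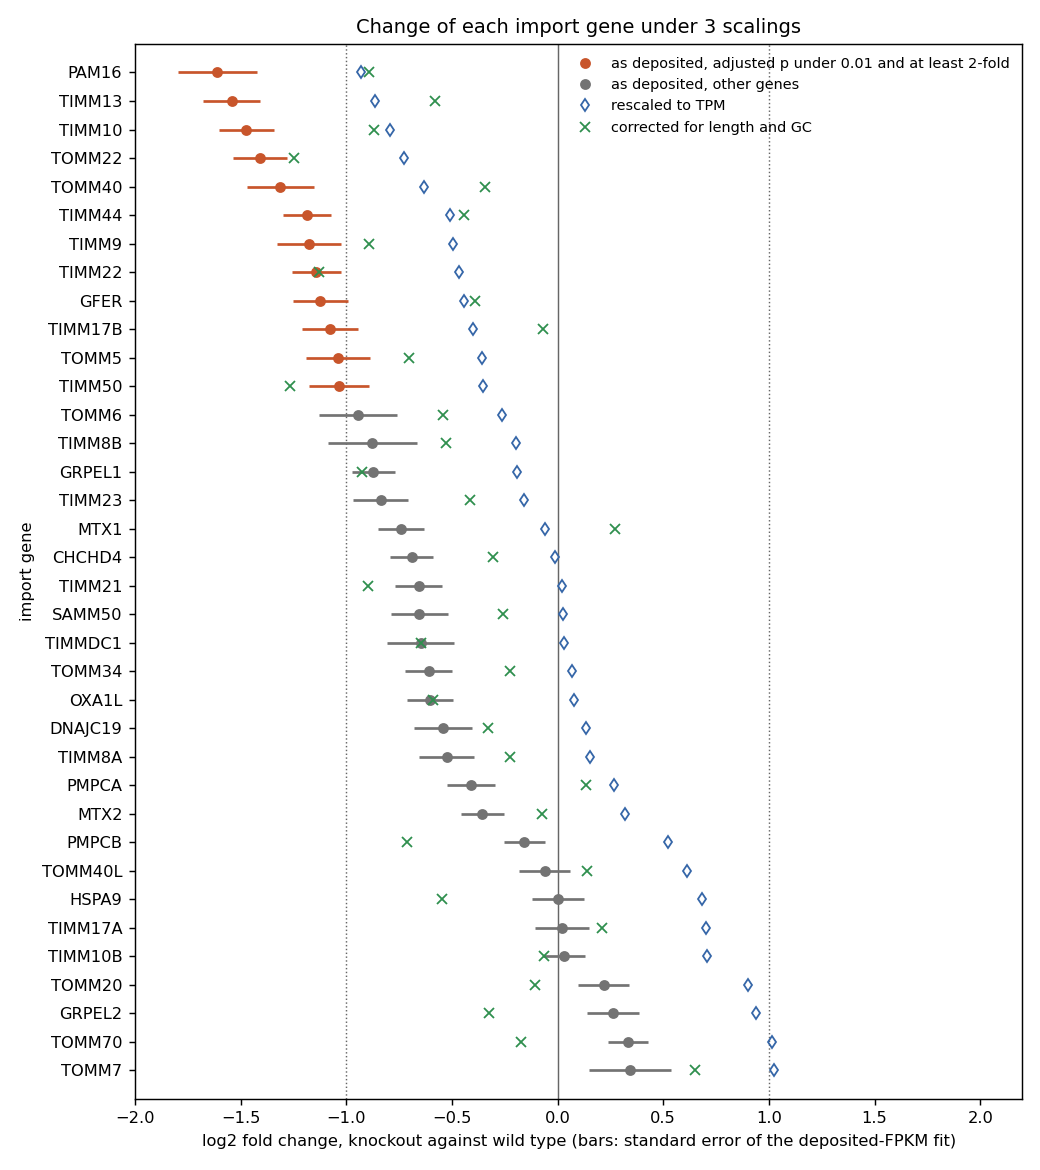
Each row is 1 of the 36 import genes, with its log2 fold change in the knockout against wild type on the horizontal axis as deposited (filled points, bars show the standard error), after rescaling to TPM (open diamonds) and after correction for length and GC (crosses). The 12 genes that fell lie left of -1 as deposited, by which they were chosen. They reach at most -0.36 (TPM) and -0.07 (corrected) at their upper end, while TOMM7 and TOMM70 pass 1 under TPM. TPM shifts all genes by nearly the same amount.

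The direction of many members depended on how libraries were scaled. The sum of FPKM over the import genes was 3971 and 4789 in wild type and 2658 and 2752 in the knockout. As a share of the library's whole FPKM sum, the import genes made up 0.493% in both wild-type libraries and 0.496% and 0.484% in the knockout. Rescaling each library to TPM moved the median log2 fold change of all genes from -0.09 to 0.59 and that of the import genes to 0.00. Under TPM 18 import genes were lower and 18 higher, 0 fell by the same rule (limma), and TOMM7 and TOMM70 rose, against 3.37% of all genes lower and 33.1% higher. At an unadjusted p under 0.05, 13 import genes were then lower and 10 higher, beside 2099 and 7486 of all tested genes. The 12 genes that fell as deposited lay between -0.93 and -0.36 under TPM. They had been chosen in the same libraries for a fall of at least 2-fold, and TPM shifts all genes by nearly the same amount. Their sign under TPM is therefore no separate support. Relative to the median of all genes, the import genes stood 0.59 lower on the log2 scale as deposited and 0.58 lower under TPM. Centring each library on its median gave 15 genes that fell, with GRPEL1, TIMM8B and TOMM6 added, against 19.6% of all genes lower and 11.0% higher.

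**Figure D2:**
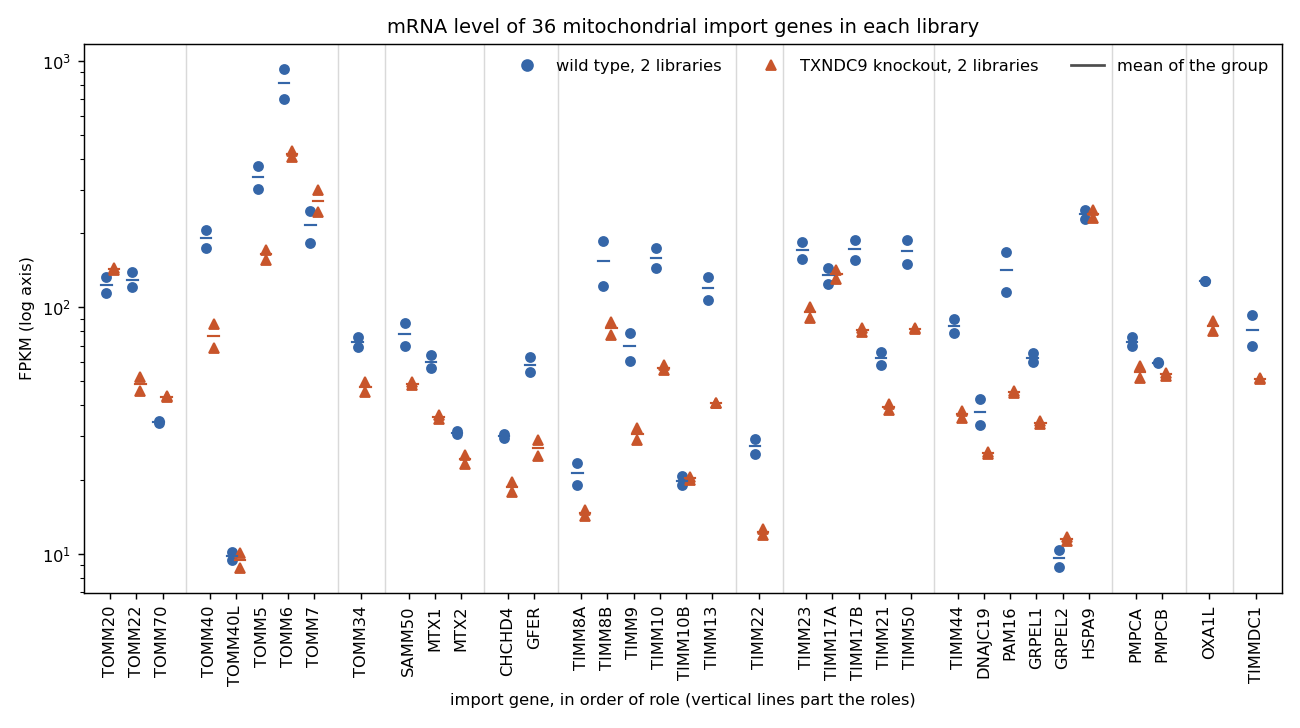
FPKM (vertical log axis) of each import gene in the 2 wild-type libraries (circles) and the 2 knockout libraries (triangles), with short lines at the group means and genes grouped by their place in the import route. Wild-type means run from 9.57 FPKM (GRPEL2) to 814 FPKM (TOMM6), and both triangles lie below both circles for 28 genes, above them for TOMM20, GRPEL2 and TOMM70 and among them for the other 5, in FPKM as deposited.

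Levels differed widely among the members. Wild-type means ran from 9.57 FPKM for GRPEL2 to 814 FPKM for TOMM6, with a median of 79.5 FPKM against 11.5 FPKM over all tested genes, and all 36 genes passed the filter of an average FPKM above 1. The wild-type libraries differed from each other more than the knockout libraries did. In 31 of 36 genes WT replicate 2 was above WT replicate 1, with a median log2 difference of 0.21 against 0.09 over all genes, and the median between the knockout libraries was 0.07.

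The promoters of 4 members are shown. TIMM10, TIMM13 and TOMM22 are the genes that fell as deposited and whose promoters held one of the motifs searched for, and TOMM20, whose knockout values lay above wild type as deposited, holds both of the marked motifs. Each holds the 250 bases upstream of the gene's start in RefSeq (GRCh38.p14) and the first 50 bases of the gene, on the gene's own strand, at chr11:57530705-57531004 (minus) for TIMM10, chr19:2427537-2427836 (minus) for TIMM13, chr22:38681707-38682006 (plus) for TOMM22 and chr1:235128788-235129087 (minus) for TOMM20. Capitals mark CACGTG, the E-box that MYC and related factors bind, and CCGGAAG, an ETS-type core, which reads CTTCCGG where it lies on the other strand.
TIMM10: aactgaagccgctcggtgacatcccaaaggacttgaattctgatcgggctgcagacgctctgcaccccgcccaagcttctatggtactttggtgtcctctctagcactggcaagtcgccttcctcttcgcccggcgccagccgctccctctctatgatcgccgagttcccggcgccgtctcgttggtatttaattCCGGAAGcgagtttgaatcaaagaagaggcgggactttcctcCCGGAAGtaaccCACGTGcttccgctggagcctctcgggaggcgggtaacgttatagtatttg
TIMM13: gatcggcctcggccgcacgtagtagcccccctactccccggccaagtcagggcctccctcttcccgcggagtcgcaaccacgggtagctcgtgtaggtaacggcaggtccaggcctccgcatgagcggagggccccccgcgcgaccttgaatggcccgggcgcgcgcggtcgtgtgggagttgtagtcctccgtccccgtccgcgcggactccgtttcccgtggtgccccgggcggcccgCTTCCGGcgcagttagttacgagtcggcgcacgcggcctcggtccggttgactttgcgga
TOMM22: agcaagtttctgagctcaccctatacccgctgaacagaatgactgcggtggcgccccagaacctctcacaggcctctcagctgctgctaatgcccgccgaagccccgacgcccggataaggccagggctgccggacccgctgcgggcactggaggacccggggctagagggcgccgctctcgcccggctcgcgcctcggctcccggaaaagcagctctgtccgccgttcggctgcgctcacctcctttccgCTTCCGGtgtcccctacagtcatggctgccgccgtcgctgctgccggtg
TOMM20: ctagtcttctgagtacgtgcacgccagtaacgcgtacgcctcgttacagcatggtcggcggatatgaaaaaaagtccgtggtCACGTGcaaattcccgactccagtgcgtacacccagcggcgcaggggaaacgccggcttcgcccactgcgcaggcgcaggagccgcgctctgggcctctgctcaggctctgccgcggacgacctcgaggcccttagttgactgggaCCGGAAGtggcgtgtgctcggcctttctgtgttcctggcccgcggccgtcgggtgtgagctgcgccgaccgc
The RefSeq promoter table used here was matched for 33 of the 36 genes, and TOMM5, TIMM8B and GRPEL1 were not analysed here. A gene counted as holding a motif if any of its promoter windows did. On either strand, CACGTG was in 4 of them (12.1%), namely HSPA9, TIMM10, TIMM8A and TOMM20, against 13.1% of 9007 tested genes and 8.77% of all 27305 genes with a promoter. CCGGAAG was in 14 of them (42.4%), against 23.6% of tested genes and 12.2% of all genes with a promoter. By change as deposited, it was in the promoters of 3 of the 11 genes that fell (TIMM10, TIMM13 and TOMM22) and of 11 of the 22 genes that did not pass. The longer element GCGCA followed directly by TGCGC, which the factor NRF1 binds, was in the promoter of CHCHD4 alone among members (3.03%), against 2.8% of tested genes. No marked matches overlap in the promoters printed, and a match describes only the letters in this window.

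At the outer membrane, the receptors of the TOM complex differed in direction as deposited. TOMM22, the central receptor that also organises the complex (chromosome 22 of hg38, 38681957 to 38685421), was at 121 and 139 FPKM in WT and 45.6 and 52.0 in TXNDC9-KO. It fell 2.65-fold (log2 -1.41, SE 0.13, adjusted p = 0.000620), with both knockout libraries well under both wild-type libraries. It stayed lower under TPM (-0.73) and after correction for length and GC (-1.25). TOMM20, the receptor for presequences, was at 115 and 132 FPKM in WT and 142 and 145 in TXNDC9-KO. TOMM70, the receptor for carrier precursors and chaperones, was at 34.0 and 34.6 FPKM in WT and 43.1 and 43.5 in TXNDC9-KO. Neither passed the test as deposited, with log2 fold changes of 0.22 (adjusted p = 0.159) for TOMM20 and 0.33 (adjusted p = 0.0225) for TOMM70. TOMM70 rose under TPM (1.01), while after correction for length and GC both were below 0 (-0.11 and -0.18).

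The channel TOMM40 (chromosome 19, 44890569 to 44903689) fell 2.48-fold, from 174 and 207 FPKM to 68.4 and 85.3 FPKM (log2 -1.31, SE 0.16, adjusted p = 0.00114). After correction for length and GC it was at -0.34 (adjusted p = 0.0475) and no longer passed. TOMM40L, its less abundant paralogue, was at 10.1 and 9.44 FPKM in WT and 8.75 and 10.0 in TXNDC9-KO, so its groups overlapped (log2 -0.06 as deposited, 0.61 under TPM). Among the small subunits that hold the channel together, TOMM5 went from 303 and 374 FPKM to 156 and 172 FPKM and fell 2.05-fold (adjusted p = 0.00203), with -0.70 after correction, where it did not pass. TOMM6, the most abundant member, was lower by less than 2-fold (log2 -0.94, adjusted p = 0.00567). TOMM7, also a small subunit, was at 183 and 247 FPKM in WT and 299 and 243 in TXNDC9-KO, with overlapping groups and a log2 fold change of 0.34 as deposited (adjusted p = 0.163) and 1.02 under TPM, where it rose. TOMM34, a cytosolic partner of the complex, was at 68.8 and 75.9 FPKM against 45.1 and 49.6 FPKM (log2 -0.61, adjusted p = 0.00470) and at 0.07 under TPM.

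In the SAM complex none of the 3 genes passed the test (0 of 3 by limma, against 15.3% of all genes lower). All 3 were lower at an unadjusted p under 0.05, as were 38.3% of all genes. SAMM50, the barrel that inserts other barrels, was at 69.3 and 86.3 FPKM in WT and 48.5 and 49.7 in TXNDC9-KO (log2 -0.66, adjusted p = 0.00701). MTX1, a metaxin of the complex, was at 56.5 and 63.8 FPKM against 35.4 and 36.4 FPKM (log2 -0.74, adjusted p = 0.00213). Its partner MTX2 was at 30.5 and 31.5 FPKM against 25.2 and 23.2 FPKM (log2 -0.36, adjusted p = 0.0228). In both metaxins and SAMM50 the knockout libraries lay below the wild-type libraries as deposited, as they did for 45.9% of all tested genes. Under TPM SAMM50 (0.02) and MTX2 (0.32) were above 0, and after correction for length and GC MTX1 was (0.27).

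In the disulfide relay, GFER, the oxidase that recharges it, fell 2.18-fold from 54.4 and 62.8 FPKM to 24.8 and 28.9 FPKM (log2 -1.12, SE 0.13, adjusted p = 0.00103), with -0.39 after correction, where it did not pass. CHCHD4, the receptor that makes the disulfides, was at 29.6 and 30.7 FPKM in WT and 17.8 and 19.5 in TXNDC9-KO (log2 -0.69, adjusted p = 0.00221). Both were lower in each knockout library, as were 45.9% of all tested genes, though CHCHD4 was at -0.01 under TPM.

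Of the 6 small TIM chaperones 3 fell, against 15.3% of all genes. TIMM13 (chromosome 19, 2425625 to 2427586) went from 107 and 133 FPKM to 41.1 and 40.7 FPKM, 2.91-fold lower (log2 -1.54, SE 0.14, adjusted p = 0.000595). TIMM10 (chromosome 11, 57528464 to 57530803) went from 144 and 174 FPKM to 55.5 and 58.4 FPKM, 2.78-fold lower (log2 -1.47, SE 0.13, adjusted p = 0.000599). TIMM9, which forms a ring-shaped complex with TIMM10, went from 60.8 and 78.7 FPKM to 32.2 and 29.0 FPKM, 2.26-fold lower (log2 -1.18, SE 0.15, adjusted p = 0.00141). The knockout libraries of these genes lay far below the lower wild-type library, and for 45.9% of all tested genes both lay below it. None of the 3 passed under TPM or after correction. After correction TIMM13 was at -0.58, TIMM10 at -0.87 and TIMM9 at -0.89. TIMM8A, which pairs with TIMM13, was at 19.02 and 23.40 FPKM against 15.04 and 14.23 FPKM (log2 -0.53, adjusted p = 0.0146), and at 0.15 under TPM. TIMM8B was at 123 and 185 FPKM against 77.2 and 86.9 FPKM (log2 -0.88, adjusted p = 0.0124), with a wide gap between its wild-type libraries. TIMM10B, which docks the chaperones on the TIM22 complex, had overlapping groups, at 18.98 and 20.66 FPKM in WT and 20.46 and 19.99 in TXNDC9-KO (log2 0.03 as deposited, -0.07 after correction and 0.71 under TPM). TIMM22 itself, the channel for carriers, fell 2.21-fold from 25.3 and 29.3 FPKM to 11.95 and 12.62 FPKM (log2 -1.14, SE 0.12, adjusted p = 0.000750), and its value after correction for length and GC was -1.13.

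In the TIM23 complex, 2 of 5 genes fell and 1 had overlapping groups as deposited, against 15.3% and 13.9% of all genes. TIMM50, the receptor that hands presequences to the channel, went from 150 and 188 FPKM to 82.3 and 81.4 FPKM, 2.05-fold lower (log2 -1.03, SE 0.14, adjusted p = 0.00168), and was at -1.27 after correction. TIMM17B, a structural subunit encoded on chromosome X (48893447 to 48898143), went from 155 and 188 FPKM to 79.1 and 82.8 FPKM, 2.11-fold lower (log2 -1.08, SE 0.13, adjusted p = 0.00123). Its paralogue TIMM17A was at 125 and 145 FPKM in WT and 131 and 142 in TXNDC9-KO, with overlapping groups (log2 0.02 as deposited, 0.21 after correction and 0.70 under TPM). After correction for length and GC, TIMM17B was at -0.07 and did not pass. The channel TIMM23 (log2 -0.84, adjusted p = 0.00262) and TIMM21 (log2 -0.66, adjusted p = 0.00349) were lower by less than 2-fold as deposited, and TIMM21 was at 0.02 under TPM.

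The import motor, with 2 of 6 genes that fell against 15.3% of all genes, held the gene with the largest change among the 36 as deposited. PAM16 (chromosome 16, 4331549 to 4355607), which restrains the J protein of the motor, went from 115 and 168 FPKM to 45.0 and 45.9 FPKM, 3.05-fold lower (log2 -1.61, SE 0.19, adjusted p = 0.00106). TIMM44, which tethers HSPA9 to the channel, went from 78.5 and 89.7 FPKM to 35.7 and 38.0 FPKM, 2.28-fold lower (log2 -1.19, SE 0.11, adjusted p = 0.000687). After correction for length and GC neither passed, with -0.895 for PAM16 and -0.44 for TIMM44. HSPA9, the ATP-driven chaperone at the centre of the motor, was at 249 and 229 FPKM in WT and 230 and 248 in TXNDC9-KO. Its groups overlapped and its log2 fold change was 0.00 as deposited (SE 0.12, adjusted p = 0.997), 0.68 under TPM and -0.55 after correction. DNAJC19, a J protein of the inner membrane related to the yeast motor subunit, was at 33.2 and 42.3 FPKM against 25.9 and 25.5 FPKM (log2 -0.54, adjusted p = 0.0159), and at 0.14 under TPM. Of the nucleotide exchange factors, GRPEL1 was at 59.9 and 65.0 FPKM against 33.7 and 34.4 FPKM (log2 -0.87, adjusted p = 0.00105). GRPEL2 was at 8.79 and 10.4 FPKM against 11.3 and 11.7 FPKM (log2 0.26 as deposited, adjusted p = 0.105, and -0.32 after correction). The knockout libraries were thus below wild type for GRPEL1 and above it for GRPEL2, as for 45.9% and 40.1% of all tested genes.

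Further along the route, 0 of 4 genes passed the test (limma), against 15.3% of all genes lower, and 3 were lower at an unadjusted p under 0.05, against 38.3%. PMPCA, the presequence-binding subunit of the matrix protease, was at 69.5 and 75.5 FPKM in WT and 51.4 and 57.7 in TXNDC9-KO (log2 -0.41, adjusted p = 0.0211). PMPCB, its catalytic subunit, was at 59.8 and 59.5 FPKM against 52.7 and 54.2 FPKM (log2 -0.16, adjusted p = 0.193). Both knockout libraries were below wild type for each subunit as deposited, as they were for 45.9% of all tested genes. Under TPM both subunits were above 0 (0.27 and 0.52). OXA1L, the insertase for proteins entering the inner membrane from the matrix side, was at 128 FPKM in both WT libraries and 80.5 and 87.6 in TXNDC9-KO (log2 -0.60, adjusted p = 0.00420, and 0.08 under TPM). TIMMDC1, a relative of the TIM17 family that acts in complex I assembly, was at 69.6 and 93.0 FPKM against 51.5 and 51.0 FPKM (log2 -0.65, adjusted p = 0.0130, and 0.03 under TPM).

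Ratios of 2 genes within a library do not depend on how the library is scaled, and 9 pairs of paralogues or partners were compared. In all 9 the knockout ratios lay outside the wild-type ratios, but 2 libraries against 2 cannot give an exact permutation p below 0.333, which is also the value adjusted over the 9 pairs. Most single genes were apart too, with overlapping groups for 13.9% of all tested genes. The share over other pairs of genes was not counted. TIMM17A was 0.802 and 0.771 times TIMM17B in wild type and 1.65 and 1.72 times in the knockout, a log2 difference of 1.10, so the paralogue with the higher FPKM was TIMM17B in wild type and TIMM17A in the knockout. GRPEL1 exceeded GRPEL2 by 6.82 and 6.28 times in wild type and 2.99 and 2.95 times in the knockout (-1.13). The ratio of TOMM40 to TOMM40L went from 17.2 and 21.9 to 7.82 and 8.50 (-1.25), and that of PAM16 to DNAJC19 from 3.47 and 3.97 to 1.735 and 1.801 (-1.07). The other 5 ratios moved less, by 0.43 for CHCHD4 to GFER, -0.38 for MTX1 to MTX2, 0.35 for TIMM8A to TIMM8B, 0.30 for TIMM9 to TIMM10 and -0.25 for PMPCA to PMPCB. Single libraries moved 2 of these by over 1.5 times. TIMM8A to TIMM8B was at 0.204 without WT replicate 2 and 0.227 without TXNDC9-KO replicate 1, and TIMM9 to TIMM10 at 0.184 without TXNDC9-KO replicate 1. After correction for length and GC the first 4 differences were 0.28, -0.60, -0.48 and -0.57, CHCHD4 to GFER was at 0.08 and TIMM8A to TIMM8B at 0.30. The other 3 turned, to 0.35 for MTX1 to MTX2, -0.03 for TIMM9 to TIMM10 and 0.85 for PMPCA to PMPCB.

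**Figure D3:**
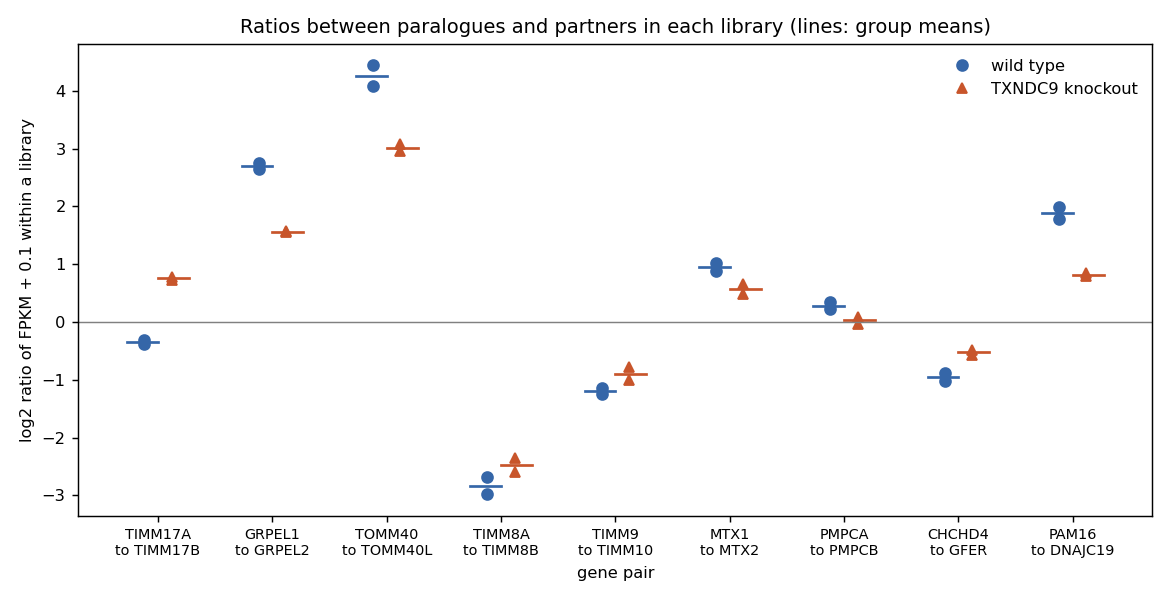
Log2 ratio of the FPKM of 2 import genes within each library for 9 pairs, with 1 point per library. The knockout points lie apart from the wild-type points in all 9 pairs, furthest for TOMM40 to TOMM40L (-1.25) and GRPEL1 to GRPEL2 (-1.13) below wild type and TIMM17A to TIMM17B (1.10) above it. Most single genes were apart too, with overlapping groups for 13.9% of all tested genes.

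Transcript length and base composition moved with the change, in the whole table and among the import genes. Across 13112 genes with a canonical transcript in GENCODE release 44, Spearman's rho between log2 fold change and length was 0.49 and between log2 fold change and GC content -0.46. Across the 36 import genes, which share the same 4 libraries and are not independent, these were 0.37 and -0.57. Import gene transcripts were shorter than those of all tested genes, with a median of 1806 against 2867 nucleotides. The 12 genes that fell had a median GC content of 55.3% and the other 24 of 44.7%. A loess correction of each library for both properties left TOMM22, TIMM22 and TIMM50 as genes that fell (3 of 36, against 7.24% of all genes lower and 6.36% higher) and gave a median of -0.40 against -0.04 over all genes. The correction used the canonical transcript, and which isoforms were expressed was not examined. For TIMM50, which went from -1.03 to -1.27, that transcript is the longest of all members (5037 nucleotides). With that correction 31 import genes were below 0 and TOMM7 (0.65) was the highest. Whether length and GC content act through the libraries or through the cells was not tested.

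**Figure D4:**
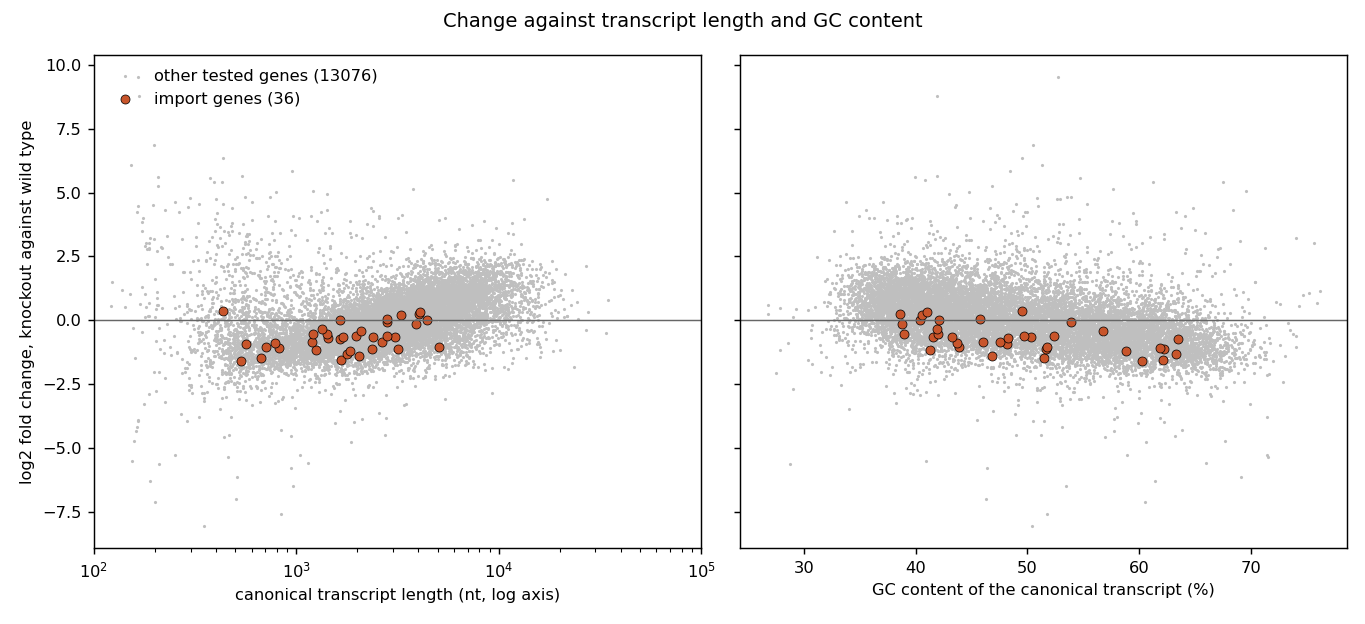
Log2 fold change as deposited against transcript length (log axis, nucleotides) and against GC content (percent) for 13112 genes in grey, with the 36 import genes drawn over them. Long transcripts tend to lie higher and GC-rich transcripts lower, in the whole table (rho 0.49 and -0.46) and among the import genes (0.37 and -0.57).

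Some members share sequence with other genes, so reads could have been split between them in counting. More than 10% of the 50-base stretches of 8 members also occur in transcripts of another gene, and 15 members share none. For TOMM6 the share was 100%, with PRICKLE4, which was at 2.06 to 2.76 FPKM, and for PAM16 81.6%, with the readthrough gene CORO7-PAM16, at 0 to 0.104 FPKM. TOMM5 shared 73.1% with overlapping noncoding genes, and TOMM40 22.5% with pseudogenes that were not used here. TIMM23 shared 17.4% of these stretches, mainly with its near-identical copy TIMM23B. Exons of a gene on the opposite strand overlap 8 members over 20.1% to 45.0% of their length (TIMM8B, GFER, TIMMDC1, TIMM9, TOMM40L, PMPCB, TIMM13 and MTX1). The sources used here do not say whether counting used strand, so reads of overlapping partners cannot be told apart. TIMM17B overlaps PQBP1 over 5.5% of its length, and PQBP1 was at 184 and 233 FPKM in WT and 86.2 and 94.4 in TXNDC9-KO.

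Genes that work with the import machinery but were not on the list were compared in the same fit. Of 12 listed partners 10 were tested, and 1 (10.0%) fell and 2 (20.0%) rose as deposited, against 15.3% and 14.2% of all genes, with a median log2 fold change of -0.15 (0.53 under TPM). MTX3, another metaxin, rose from 5.20 and 4.30 FPKM to 15.6 and 16.0 FPKM (log2 1.72, adjusted p = 0.000538). After correction for length and GC it was at 0.61 and did not pass. ROMO1, a small inner membrane protein bound to the TIM23 complex, fell from 374 and 593 FPKM to 172 and 162 FPKM (log2 -1.49, adjusted p = 0.00252). TIMM23B rose from 4.25 FPKM in both wild-type libraries to 8.999 and 8.983 FPKM (log2 1.06, adjusted p = 0.000810), opposite to TIMM23. It was named outside the rule of the 2 largest changes of each list. TIMM23B and TIMM23 share sequence, so reads could have been split between them. After correction for length and GC ROMO1 (-1.05) and TIMM23B (1.04) passed. Under TPM MTX3 (2.40) and TIMM23B (1.74) passed and ROMO1 (-0.81) did not.

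Of 14 genes for processing and folding in the matrix, 3 (21.4%) fell and 0 rose (limma), against 15.3% and 14.2% of all genes. At an unadjusted p under 0.05, 8 (57.1%) were lower and 2 (14.3%) higher, against 38.3% and 33.0% of all genes. The median was -0.57, and under TPM it was 0.10, with 0 lower (limma) and 3 higher. HSPE1, the cochaperonin of HSPD1, fell from 620 and 726 FPKM to 233 and 244 FPKM (log2 -1.49, adjusted p = 0.000685), and HTRA2, a protease, from 45.7 and 52.3 FPKM to 21.8 and 21.7 FPKM (log2 -1.17, adjusted p = 0.000665). HSPD1, named after its values were seen, was at 493 and 458 FPKM in WT and 428 and 461 in TXNDC9-KO (log2 -0.10, adjusted p = 0.550). Of the 7 genes of MICOS, which shapes the inner membrane, 2 (28.6%) fell and 0 rose (limma), against 15.3% and 14.2% of all genes. At an unadjusted p under 0.05, 4 (57.1%) were lower and 1 (14.3%) higher, against 38.3% and 33.0% of all genes. The median was -0.53, and under TPM it was 0.15, with 0 lower (limma) and 1 higher. The genes that fell were CHCHD6 (log2 -1.45, adjusted p = 0.000696) and C19orf70, now MICOS13 (log2 -1.44, adjusted p = 0.00107). HSPE1, HTRA2, CHCHD6 and C19orf70 did not pass under TPM, where they lay between -0.81 and -0.49. After correction for length and GC HSPE1 fell (-1.33), and HTRA2 (-0.44), CHCHD6 (-0.44) and C19orf70 (-0.76) did not pass.

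Other nuclear-encoded mitochondrial groups gave a scale for these values. Of 78 tested mitochondrial ribosomal protein genes (MRPL and MRPS), 37 (47.4%) fell and 0 rose (limma), at a median of -0.97 on the log2 scale. Of these genes 0 were higher at an unadjusted p under 0.05, against 33.0% of all tested genes. Of 37 complex I subunit genes (NDUF) 17 (45.9%) fell and 1 rose, with a median of -0.91. As deposited the import genes, with 33.3% and -0.67, stood between these groups and all tested genes, and the difference from either group was not tested. Under TPM 0 of 36 import genes fell (0.0%), against 4 of 78 mitochondrial ribosomal protein genes, 6 of 37 complex I genes and 3.37% of all genes. After correction for length and GC 3 of 36 import genes fell, against 11 of 78 ribosomal and 11 of 37 complex I genes. Over all genes 949 of 13112 (7.24%) then fell. The medians under TPM were 0.00 for the import genes, -0.29 for the mitochondrial ribosomal protein genes and -0.23 for complex I, against 0.59 over all genes.

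**Figure D5:**
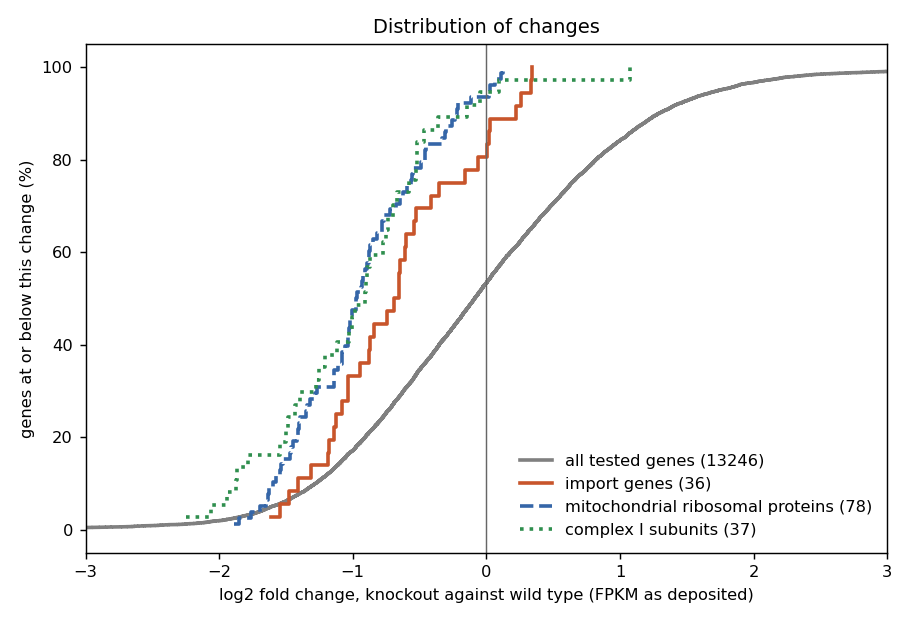
Cumulative share of genes (percent, vertical axis) at or below each log2 fold change as deposited, for all tested genes, the import genes, the mitochondrial ribosomal protein genes and the complex I subunit genes. The medians are -0.09, -0.67, -0.97 and -0.91, and under TPM they shift to 0.59, 0.00, -0.29 and -0.23.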

How the data were processed

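Polyadenylated RNA of 2 WT and 2 TXNDC9-KO samples was sequenced, with groups taken from the labels. The authors mapped reads to hg38 with TopHat2 and an Ensembl annotation and deposited 1 FPKM value for each gene and library, made with Cuffdiff of the Cufflinks suite. For tool versions, scaling between libraries and strand, the settings are not given in the sources used here. The deposited columns of fold changes, p-values and q-values were not used. Of 231916 lines, 57979 held values. Identifiers stood on other lines than their symbols and were put back in order, after which 36 of 36 import genes carried the identifier that GENCODE release 44 gives their symbol. Low values showed no step of 1 read (at most 0.96% of low genes shared 1 ratio between libraries), so reads could not be recovered.

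The members and gene lists were chosen with earlier results of these data known. The test was limma 3.58.1 in R 4.3.3 on log2(FPKM + 0.1), a scale that understates the change of low genes, for the 13246 genes whose average FPKM exceeded 1. The prior variance followed a trend with level, and p-values were adjusted over all of these genes by Benjamini-Hochberg. A gene fell or rose at an adjusted p under 0.01 and a change of at least 2-fold. Other settings tried were other pseudocounts (1 and 0.01), other filters (none, and an average above 5 FPKM), TPM (each library's FPKM rescaled to the same sum), centring on the median, no trend, an adjusted p under 0.05 alone, a replicate block, each library left out, and a loess correction (span 0.3) for length and GC of the canonical transcript. Ratios were compared by an exact 2-sided permutation test. The fit was tested on simulated data of this comparison with 13112 genes, 200 of them changed, and found 100% of these and no others. A simulated length trend left 87.0% found beside 1395 genes called wrongly, and the correction restored 100% and removed the wrong calls. The simulation was easier than the data. All genes had the same noise, all changes exceeded 2-fold, and the trend followed length alone. Far fewer genes changed than passed in the data (2021 lower and 1885 higher). It therefore checks that the fit runs as meant and does not give the share of right calls in these data.

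Values in each library are given for the 2 largest absolute changes of each role, the members of the 9 pairs, and members with the sign opposite to the median. The 2 largest changes of each further list are named, and TIMM23B and HSPD1 besides. Sharing was counted over 50-base stretches of GENCODE transcripts. Python 3.11.15 with pandas 2.3.3, numpy 2.4.6, scipy 1.17.1 and matplotlib 3.10.9 was used.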

Additional observations from a re-analysis of the deposited data

How the results depend on the processing

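With 2 libraries a group and no counts, the precision rests on 4 libraries, and the depth is unknown. The 12 import genes that fell, the 0 that rose and the median of -0.67 kept their size (within 1.5 times) with a pseudocount of 1 or 0.01, no filter (11 fell, without TOMM5), an average FPKM above 5, centring on the median (15 fell), no trend and the replicate block. Libraries of the same replicate number showed no shared shift (correlation of same-numbered deviations -0.09), which does not tell whether they were prepared together. With the block 12 import genes, 2146 genes in all lower and 1960 higher were called, with the 9 ratios as they were (TIMM17A to TIMM17B 1.10). Over all genes, 2021 fell and 1885 rose.

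Rescaling to TPM gave 447 lower and 4380 higher in all, 0 import genes that fell and 2 that rose, and turned the median to 0.0044, TXNDC9 to 0.12, DNAJC19 to 0.14, MTX2 to 0.32, OXA1L to 0.0768, PMPCA to 0.27, PMPCB to 0.52, SAMM50 to 0.024, TIMM21 to 0.0221, TIMM8A to 0.15, TIMMDC1 to 0.0309, TOMM34 to 0.0687 and TOMM40L to 0.61. Centring turned HSPA9 to -0.14, TIMM10B to -0.11 and TIMM17A to -0.12 and gave TXNDC9 -0.70, with an adjusted p under 0.01 but under 2-fold. The correction for length and GC gave 949 lower and 834 higher in all (965 and 857 with the replicate block), 3 import genes that fell and a median of -0.40 with or without the block. It turned, also with or without the block, GRPEL2 to -0.32, HSPA9 to -0.55, MTX1 to 0.27, PMPCA to 0.14, TIMM10B to -0.0658, TOMM20 to -0.11, TOMM40L to 0.14 and TOMM70 to -0.18, and the ratios of MTX1 to MTX2 to 0.35, PMPCA to PMPCB to 0.85 and TIMM9 to TIMM10 to -0.0255. The cause of these shifts was not tested.

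An adjusted p under 0.05 without a fold limit gave 4856 lower and 4181 higher in all, and 27 import genes lower and 1 higher, against 36.7% and 31.6% of all genes. An average FPKM above 5 gave 1220 genes higher in all. With that filter and with the replicate block TXNDC9 (-0.55) had an adjusted p under 0.01 but stayed under 2-fold. Leaving out each library gave 0 to 2633 genes lower and 0 to 2136 higher in all, 0 to 14 import genes that fell, 0 without either TXNDC9-KO library, 0 that rose, and a median of -0.82 to -0.63. Values of both signs came from leaving out libraries for TOMM40L, TIMM10B, TIMM17A and HSPA9, given as ranges here: TOMM40L -0.16 to 0.0366, TIMM10B -0.0305 to 0.0912, TIMM17A -0.0889 to 0.13 and HSPA9 -0.0598 to 0.0609.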
